A study of Arabidopsis thaliana with 18 samples.

Results

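The shift of AGO1 loading with Alternaria asks, for every microRNA (miRNA) of Arabidopsis leaves, whether infection changed the amount found in the effector protein ARGONAUTE1 (AGO1) by more or less than the amount in the whole leaf. It is a difference of differences on the log2 scale: AGO1 minus total RNA in infected leaves, less AGO1 minus total RNA in mock-treated leaves. A negative shift means that the AGO1 level moved down relative to the total level. Members were the miRNA families and mature sequences with listed reads in at least 1 total and at least 1 AGO1 library of these groups, which gave 67 of 101 families and 212 of 476 distinct sequences. A further 19 families had reads in the total libraries only and 15 in the AGO1 libraries only. Of the distinct sequences, 22 were listed under more than 1 family, and their reads count in each, so family values are not all independent.

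All plants were Arabidopsis thaliana of the wild-type accession Col-0, about 5 to 6 weeks old and grown in short days. Infected leaves had been sprayed with Alternaria brassicicola, a necrotrophic leaf-spot fungus (strain MUCL 20297, 1000000 spores per ml in 0.01% Silwet L 77), and rosette leaves were collected on day 3. The labels call the controls mock treated and do not give their spray or harvest day separately. From each treatment 3 biological replicates were sequenced as total small RNA and 3 as small RNA recovered with an AGO1 antibody, so the comparison rests on 12 libraries. Untreated leaves, with 3 libraries of each type, were used only as a second control, given at the end. The titles of their AGO1 libraries read AGO-immunoprecipitated, without the number. The labels record different protocols for total and AGO1 RNA, so a single AGO1 minus total value also holds the difference between protocols. Whole leaves were used: fewer cells that make a miRNA and less miRNA per cell cannot be told apart. Only small RNA was measured, so the leaf identity could not be checked by marker genes.

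In plants, miRNA duplexes are cut from hairpin precursors by DICER-LIKE1, and 1 strand is kept by an ARGONAUTE protein while the other, the passenger strand, is discarded. AGO1 is the main miRNA effector and prefers a 5′ uridine, whereas other ARGONAUTE proteins favour other 5′ bases or single miRNAs, as AGO7 does for miR390. Loaded miRNAs guide cleavage or translational repression of matching messenger RNAs, so a miRNA that accumulates in the leaf need not gain in AGO1.

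The mature sequences below carry the results. They are given 5′ to 3′ as deposited, with T for U, and the capitals mark the seed, bases 2 to 8. Positions come from exact matches to the RefSeq copy of the Arabidopsis genome, in which 461 of the 476 listed sequences matched as many times as the deposited table states. The first set holds the most read sequences of the 8 families with the smallest p for a lower shift. Where total RNA and AGO1 differed in the most read sequence, both are given. The 21-nt miR850 and the 19-nt miR163 were added for their own small p for a lower shift.
miR850, 22 nt, 5p, chr4:7845756-7845777 (+): tAAGATCCggactacaacaaag
miR850, 21 nt, starting 1 base later, chr4:7845757-7845777 (+): aAGATCCGgactacaacaaag
miR408-5p, most reads in total RNA, chr2:19319866-19319886 (+): aCAGGGAAcaagcagagcatg
miR408-3p, most reads in AGO1, chr2:19319934-19319953 (+): tGCACTGCctcttccctggc
miR840-5p, most reads in total RNA, chr2:771492-771513 (-): aCACTGAAggacctaaactaac
miR840-5p, most reads in AGO1, chr2:771492-771512 (-): cACTGAAGgacctaaactaac
miR827-3p, chr3:22122811-22122831 (-): tTAGATGAccatcaacaaact
miR163-3p, 24 nt, chr1:24884359-24884382 (+): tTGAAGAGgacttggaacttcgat
miR163-3p, 19 nt, chr1:24884359-24884377 (+): tTGAAGAGgacttggaact
miR5651-5p, chr3:17178489-17178509 (+): tTGTGCGGttcaaatagtaac
miR838-3p, chr1:28635-28655 (+): tTTTCTTCtacttcttgcaca
miR8183-5p, chr3:11747799-11747819 (-): tTTAGTTGacggaattgtggc

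The second set shows sequences that share a seed and differ at the 3′ end, and the 2 strands of miR169. The seed TCCACAG is common to miR396a and miR396b, CGGACCA to the long and the short miR166, CCCAAAT to both miR158 forms and TAGATTC to both miR403 forms.
miR396a-5p, chr2:4142443-4142463 (-): tTCCACAGctttcttgaactg
miR396b-5p, chr5:13611808-13611828 (+): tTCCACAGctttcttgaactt
miR166-3p, 21 nt, first of 7 loci, chr2:19176241-19176261 (+): tCGGACCAggcttcattcccc
miR166-3p, 19 nt, first of 7 loci, chr2:19176241-19176259 (+): tCGGACCAggcttcattcc
miR158-3p, 20 nt, chr3:3366349-3366368 (-): tCCCAAATgtagacaaagca
miR158-3p, 18 nt, chr3:3366351-3366368 (-): tCCCAAATgtagacaaag
miR403-3p, 21 nt, chr2:19415154-19415174 (+): tTAGATTCacgcacaaactcg
miR403-3p, 19 nt, chr2:19415154-19415172 (+): tTAGATTCacgcacaaact
miR169-3p, most reads in total RNA, chr3:4805713-4805733 (-): gCAAGTTGaccttggctctgc
miR169-5p, most reads in AGO1, first of 7 loci, chr1:6695544-6695564 (-): tAGCCAAGgatgacttgcctg

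The libraries differed in depth by type. The miRNA reads listed per library ranged from 1166166 to 3034481 in total mock, from 1688043 to 3007736 in total Alternaria, from 12998921 to 18459117 in AGO1 mock and from 10835770 to 19784394 in AGO1 Alternaria. Listed miRNAs made up 5.33 to 13.2% of the genome-matched reads in total mock, the highest in replicate 3, and 7.76 to 11.7% in total Alternaria, against 77.8 to 83.4% in the AGO1 libraries. The deposited table lists no sequence with fewer than 15 reads in a run, so a sequence given as 0 can have had up to 28 reads in a library of 2 runs. Levels are given as CPM, reads scaled to a common number of listed miRNA reads, after scaling by the trimmed mean of M values (TMM), so scaled values of a library need not add up to its reads. The TMM factor was 0.91 in AGO1 mock replicate 2, against 0.54 to 0.75 in the other AGO1 libraries. The 3 libraries of a group are the only measure of error, with which intervals and p-values were made.

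No family passed the test for a shift. With limma on log2(CPM + 1), 0 of 67 families had an adjusted p under 0.05 (percent called over all tested: 0%), and limma-voom also called 0. Without adjustment, 8 families (11.9% of those tested) had p under 0.05, and the shift was lower in all 8. A fit with a block for library type and replicate number, chosen after the data were seen, called 2 families, miR850 and miR408, both lower (limma adjusted p = 0.0244 and 0.0427). By the correlation of their deviations the numbers paired the mock and infected AGO1 libraries but not the total ones, to which the block was also applied. The SE of the shift was 0.395 with this block against 0.397 without it for miR850, which hardly differs. For miR408 it was 0.398 against 0.424. The fitted shifts ran from −2.87 to 1.27, with a median of −0.22 and a median standard error (SE) of 0.50. The median itself moved with the scaling, from −0.50 with genome-matched totals to 0.16 with a median of ratios, so single shifts are best read relative to it. The 50 families listed in all 12 libraries had a median shift of −0.14, and the 17 families listed at 0 in at least 1 library had a median of −1.25 with SEs of 0.92 to 1.69. Of the 18 families with a shift beyond 1 log2 unit in either direction, 11 were among these 17.

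**Figure D1:**
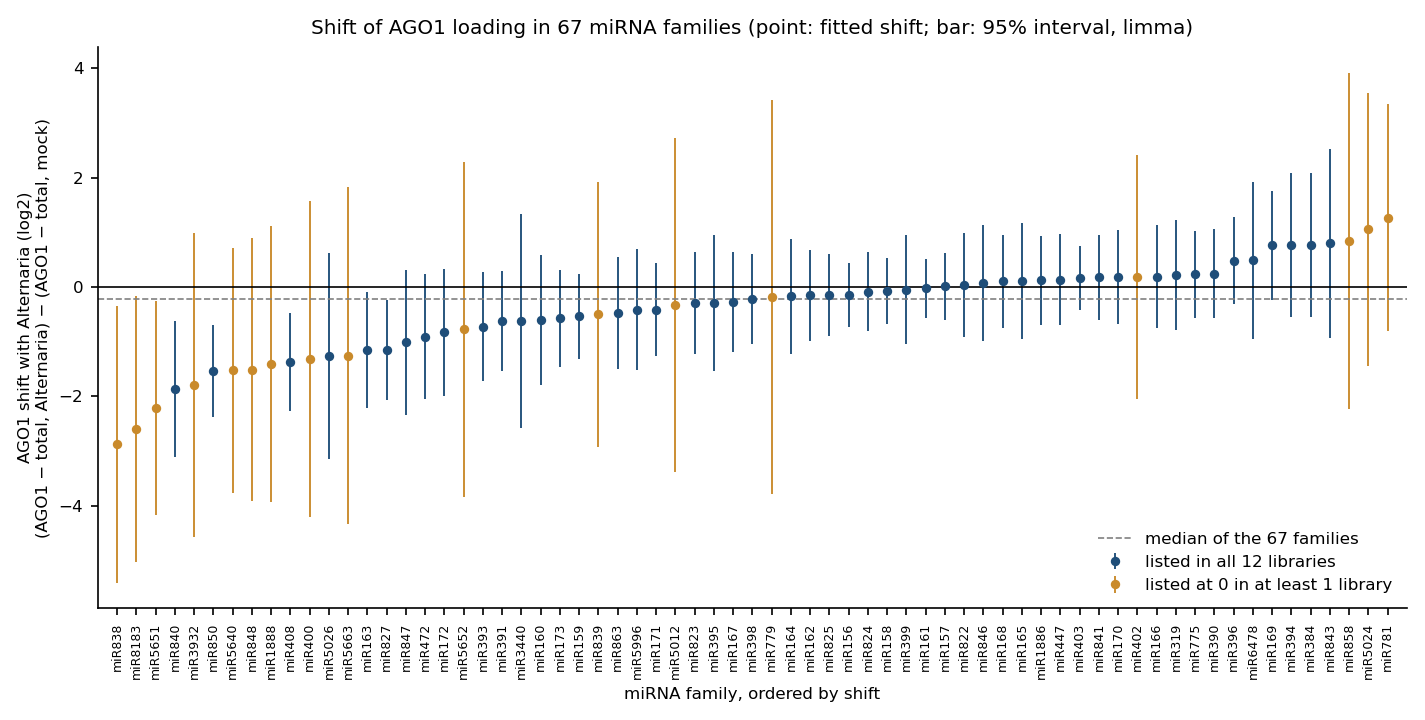
Fitted AGO1 shift with Alternaria (y axis, log2) of the 67 families ordered along the x axis, with 95% intervals from limma (12 libraries). Blue points are the 50 families listed in all libraries and orange points the 17 listed at 0 in at least 1; 8 intervals exclude 0, all on the lower side, and none passed after adjustment.

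The AGO1 minus total values of mock and infected leaves ran close together. AGO1 minus total passed the test in 47 of 67 families in mock leaves (70.1%), 22 higher (32.8%) and 25 lower (37.3%) in AGO1, and in 47 of 67 families in infected leaves (70.1%), 20 higher (29.9%) and 27 lower (40.3%). These splits follow the scaling: with TMM within each library type they were 11 higher and 38 lower in mock leaves and 9 higher in infected leaves. The values ran from −9.86 for miR164, which targets NAC transcription factors, to 6.03 for miR847 in mock leaves. Across the 67 families the mock and Alternaria values had a Pearson correlation of 0.96 and the same sign in 62 families. This correlation is a description over families that share libraries and scaling.

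The change with infection was also tested in each library type alone. In total RNA 6 of 67 families passed the test for Alternaria minus mock (8.96%), of which 5 (7.46%) rose, namely miR827, miR163, miR5651, miR840 and miR8183, and 1 (1.49%) fell, miR169. miR5651 and miR8183 were listed at 0 in total mock replicates 1 and 2, where a 0 can stand for up to 12.9 and 18.4 scaled CPM. Their fitted rise depends on how zeros are read, which was not varied for the single changes. In AGO1 0 of 67 passed with limma (0%), 9 had an unadjusted p under 0.05, and limma-voom called 4: miR163 and miR5651 higher, miR398 and miR850 lower. With the block for library type and number, 5 of 67 passed in AGO1, of which miR163 and miR827 rose and miR164, miR398 and miR408 fell (limma adjusted p = 0.0216 to 0.0394). The calls of miR840 and miR8183 in total RNA were lost when any 1 library other than total mock replicate 3 and AGO1 mock replicates 2 and 3 was left out, with limma adjusted p-values of 0.0508 to 0.106 for miR840 and 0.0508 to 0.153 for miR8183. The call of miR169 was lost without total mock replicate 1, with a limma adjusted p of 0.0638. In AGO1, miR163 and miR398 passed without total Alternaria replicate 2 or 3 (limma adjusted p = 0.0469 and 0.0355 for each), and miR163 and miR822 passed without AGO1 mock replicate 3 (adjusted p = 0.0268 for each); miR163 was higher and the other two lower. The total and the AGO1 change had the same sign in 40 of the 67 families. The range of changes was wider in total RNA, from −1.65 to 3.84, than in AGO1, from −1.38 to 1.63.

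**Figure D2:**
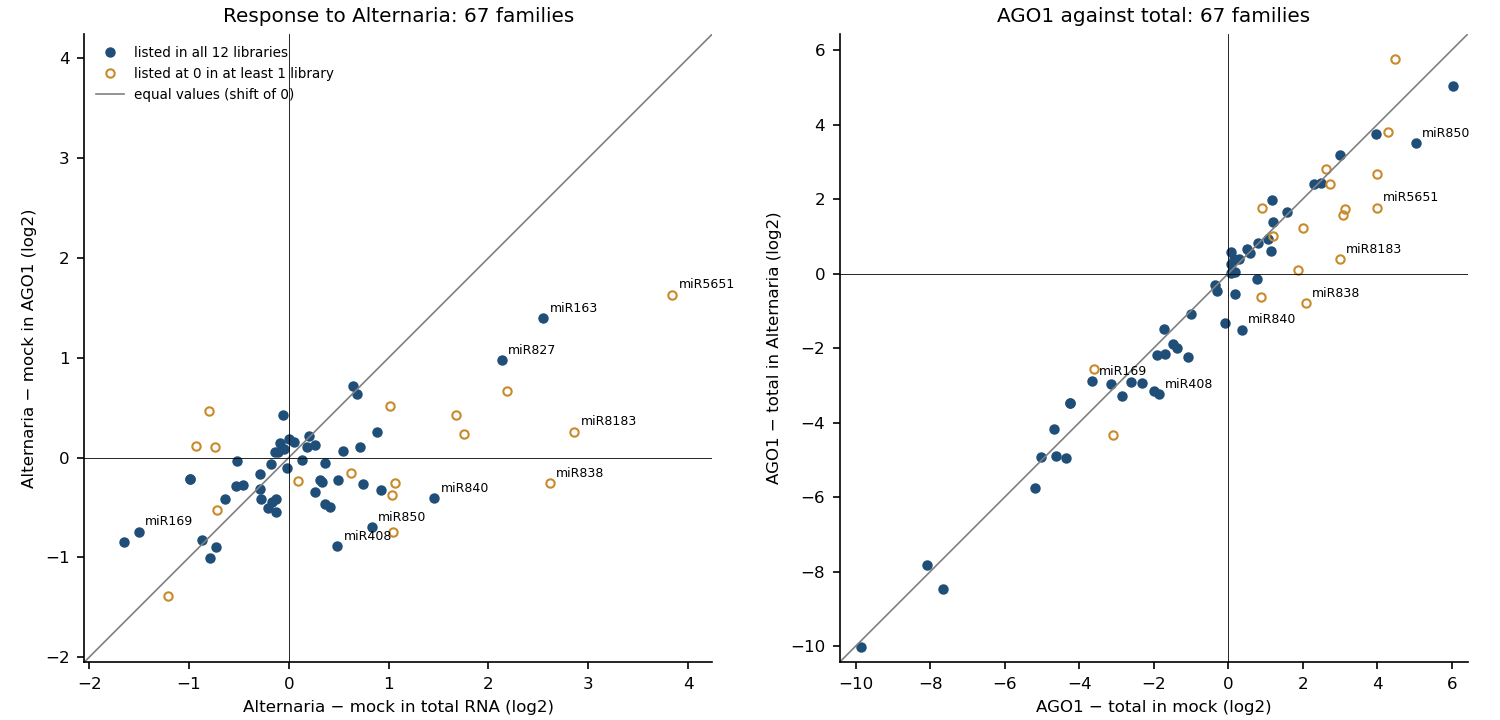
Left, log2 change with Alternaria in total RNA (x axis) against that in AGO1 (y axis) for 67 families; right, log2 AGO1 minus total in mock (x axis) against infected leaves (y axis). A family on the grey line has a shift of 0, and its distance from the line is the same shift in both panels. Families with the largest fitted rise in total RNA, such as miR5651, miR163 and miR827, lie below it, and 18 of 67 families lie more than 1 log2 unit from it. The right panel spans the wider range, from −10.0 to 6.03.

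The 5 families called higher in total RNA were all among the 8 with an unadjusted p under 0.05 for a lower shift. The total change is itself a term of the shift, so this overlap is partly built in. Of these, miR827, which targets NLA, a ubiquitin ligase gene of phosphate homeostasis, was at 428, 424 and 385 CPM in total mock and at 1716, 1801 and 1918 CPM in total Alternaria. In AGO1 it was at 233, 129 and 238 CPM in mock and at 534, 374 and 276 CPM in Alternaria. The groups did not overlap in either library type, with all infected libraries higher. The rise was 2.13 ± 0.30 (log2, SE) in total RNA (limma adjusted p = 0.000113) and 0.98 ± 0.30 in AGO1 (adjusted p = 0.121), which gave a shift of −1.15 ± 0.43 (adjusted p = 0.278).

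A closely similar pattern was measured for miR163, a 24-nt miRNA that targets S-adenosyl-methionine-dependent methyltransferase genes. Its total level was 1945, 895 and 1101 CPM in mock and 4965, 7201 and 10786 CPM in Alternaria. Its AGO1 level was 259, 262 and 448 CPM in mock and 910, 872 and 705 CPM in Alternaria. Again every infected library lay above every mock library of its type. The change was 2.55 ± 0.35 in total RNA (limma adjusted p = 0.000113) and 1.40 ± 0.35 in AGO1 (adjusted p = 0.0741), and the shift was −1.15 ± 0.50 (adjusted p = 0.316). At the level of single sequences 4 of 209 passed the test for Alternaria minus mock in AGO1 (1.91%), of which 3 rose, the 24-nt and 23-nt miR163 and the 21-nt miR827, and 1 fell, the 3p sequence of miR398a.

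The lower-abundance families of the group were near the listing minimum in the total libraries of mock leaves. miR5651 was listed at 0, 0 and 3.44 CPM in total mock and at 22.3, 13.1 and 39.1 CPM in total Alternaria. In AGO1 it was at 21.6, 22.5 and 32.2 CPM in mock and at 90.5, 92.2 and 60.5 CPM in Alternaria, with no overlap between treatments. Its shift was −2.21 ± 0.92 (limma adjusted p = 0.316), and it turned to 0.48 when values listed at 0 were set to 28 reads. miR8183 was listed at 0, 0 and 10.5 CPM in total mock, at 21.4, 12.5 and 13.6 CPM in total Alternaria, and between 14.4 and 25.2 CPM in all 6 AGO1 libraries. Its shift of −2.60 ± 1.14 (limma adjusted p = 0.316) became 0.092 under the same setting. miR838, which lies in an intron of the DICER-LIKE1 gene, was listed at 0, 0 and 9.10 CPM in total mock and at 17.3, 10.5 and 10.1 CPM in total Alternaria. Its AGO1 level was 3.55 to 10.8 CPM with overlapping treatments, and its shift of −2.87 ± 1.19 (limma adjusted p = 0.316) became −0.18 with zeros at 28 reads.

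For miR850, miR408 and miR840, which were listed in all 12 libraries, the fitted AGO1 level was lower and the total level higher in infected leaves. miR850 had the smallest p. Its total level was 22.6, 29.6 and 29.9 CPM in mock and 71.4, 40.1 and 41.2 CPM in Alternaria, and its AGO1 level was 777, 964 and 1038 CPM in mock and 559, 620 and 522 CPM in Alternaria. By listed reads the treatments did not overlap in either library type, and they moved in opposite directions. The miR850 form beginning with A was listed at 0 in total mock replicates 1 and 2. Such a 0 can stand for up to 12.9 and 18.4 scaled CPM there. The rise and the separation in total RNA therefore depend on how it is read, which was not varied within families. Neither change passed alone (0.83 ± 0.28 in total RNA, limma adjusted p = 0.0652; −0.70 ± 0.28 in AGO1, adjusted p = 0.204), and the shift was −1.53 ± 0.40 (adjusted p = 0.0984).

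miR408 targets messenger RNAs of copper proteins, plantacyanin and laccases. Its total level was 1550, 2513 and 2310 CPM in mock and 3594, 3050 and 2250 CPM in Alternaria, with overlap. Its AGO1 level was 747, 462 and 537 CPM in mock and 382, 312 and 245 CPM in Alternaria, with every infected library below every mock library. The changes were 0.48 ± 0.30 and −0.89 ± 0.30 (limma adjusted p = 0.321 and 0.158), and the shift was −1.37 ± 0.42 (adjusted p = 0.128). miR840 was at 39.2, 21.7 and 65.1 CPM in total mock and at 107, 95.1 and 119 CPM in total Alternaria. Its AGO1 level was 46.9, 39.3 and 65.3 CPM in mock and 37.3, 38.7 and 35.1 CPM in Alternaria, so all infected libraries were higher in total RNA and none exceeded the lowest mock library in AGO1. Its shift was −1.86 ± 0.58 (limma adjusted p = 0.128).

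**Figure D3:**
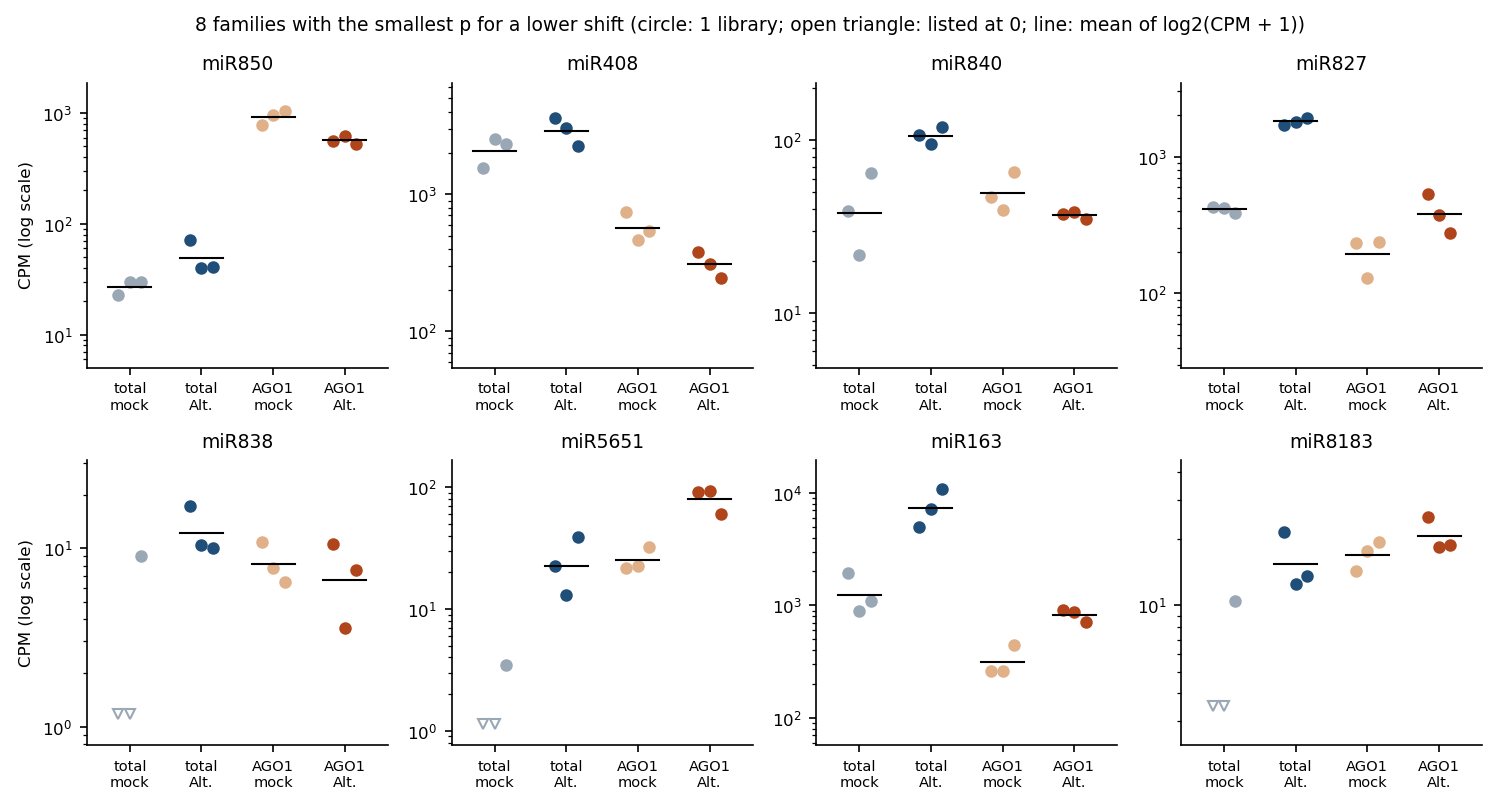
CPM (log axis) in each of the 12 libraries for the 8 families with the smallest p for a lower shift; circles are libraries, open triangles libraries listed at 0 and drawn below the lowest listed value, and lines the mean of log2(CPM + 1) where no library is at 0. Fitted total levels are higher with Alternaria in 8 of 8 families. This is partly built in, since the families were picked for a lower shift and the total change is a term of it. Fitted AGO1 levels are lower for miR850, miR408, miR840 and miR838 and higher for miR827, miR5651, miR163 and miR8183. The AGO1 libraries of the treatments overlap for miR838 and miR8183.

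A further count uses no fitted SE, but the same scaling and added 1 CPM as the fit. It counts the families in which the 9 possible AGO1 minus total differences of 1 treatment did not overlap the 9 of the other. This held for 4 of 67 families (5.97%): miR850, miR408 and miR840, all lower, and miR781, higher. For miR850 the 9 differences were 4.65 to 5.46 in mock and 2.85 to 3.92 in Alternaria. For miR408 they were −2.44 to −1.05 and −3.87 to −2.56. miR781 was listed in 1 of the 6 total libraries, total mock replicate 3, at 4.25 CPM. Its value of 1.27 ± 0.98 (limma adjusted p = 0.641) holds a change of −0.80 in total RNA and of 0.47 in AGO1. The total term is set by that library, the listed zeros and the added 1 CPM. The AGO1 levels of miR781 were 34.7 to 41.2 CPM in mock and 47.5 to 55.8 CPM in Alternaria.

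These values depended on total mock replicate 3. Without that library 5 of 67 families passed the test, all lower: miR8183 (−3.72, limma adjusted p = 0.00363), miR838 (−3.93, adjusted p = 0.00961), miR840 (−2.24, adjusted p = 0.00969), miR5651 (−2.87, adjusted p = 0.0178) and miR850 (−1.60, adjusted p = 0.0257). The library held 3034481 miRNA reads against 1419447 and 1166166 in the other total mock libraries. Without it miR8183, miR838 and miR5651 were at 0 in every remaining total mock library, so their fitted values are set by the listing minimum and the added 1 CPM. No other single library made a family pass. Run 2 alone gave 1 call, miR850 (−1.78, limma adjusted p = 0.0221). Beside these and the block for library type and number, no setting of those run called a family.

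The families with the smallest p for a higher shift were miR169, miR396, miR781, miR384 with miR394, miR843, miR5024 and miR6478, and none had an unadjusted p under 0.05. miR169, which targets NF-YA transcription factors and is known from nitrogen responses, fell in total RNA from 421, 346 and 312 CPM in mock to 122, 129 and 125 CPM in Alternaria. Its AGO1 level was 26.8, 23.5 and 33.0 CPM in mock and 23.2, 11.9 and 14.9 CPM in Alternaria, and the treatments did not overlap in either library type. The change was −1.50 ± 0.33 in total RNA (limma adjusted p = 0.00592) and −0.74 ± 0.33 in AGO1 (adjusted p = 0.294), with a shift of 0.76 ± 0.47 (adjusted p = 0.641). The 2 library types held different strands: 2.16% of miR169 reads in total RNA and 100% of those in AGO1 came from the 5p arm, so the family value compares the 3p with the 5p strand. For the 5p arm alone, which had 95 reads in the 6 total libraries and was listed at 0 in 3 of them, the fitted shift had the opposite sign, −2.20 ± 1.22 (limma adjusted p = 0.536).

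miR384 and miR394 share their listed sequences and give 1 value. miR394, which targets the F-box gene LCR, was at 1111, 1417 and 1365 CPM in total mock and at 360, 1122 and 677 CPM in total Alternaria, with 34.8 to 105 CPM in AGO1, and had a shift of 0.77 ± 0.62 (limma adjusted p = 0.641). miR843 had a shift of 0.80 ± 0.81 and miR5024 of 1.05 ± 1.17 (adjusted p = 0.772 and 0.828). miR6478, whose sequence matches the genome 64 times and no miRNA locus, had a shift of 0.49 ± 0.67 (adjusted p = 0.900).

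Some families had shifts bounded near 0. For 13 of 67 families (19.4%) the 95% interval of the shift lay within 1 log2 unit of 0, among them miR403, which targets AGO2, with 0.16 (−0.42 to 0.74), and miR156, which targets SPL transcription factors, with −0.14 (−0.73 to 0.45). miR158 was at −0.08 (−0.68 to 0.53) and miR161 at −0.02 (−0.56 to 0.52). These 4 and miR157, which shares the most read sequence of miR156, had the smallest SEs, 0.25 to 0.29. The far less abundant miR824 and miR825 followed at 0.34 and 0.35, with miR824 at 72.5 to 83.3 CPM in AGO1. Abundance did not set the order: miR166, which targets class III HD-ZIP genes, held 565979 to 1223650 scaled CPM in AGO1 and had a shift of 0.19 ± 0.44. The related miR165 was at 0.11 ± 0.50, and its most read sequence is also listed under miR166. miR159, which targets GAMYB-like genes, was at −0.54 ± 0.36. miR390, which is bound by AGO7, was at 49669 to 119500 CPM in total RNA and at 284 to 470 CPM in AGO1, with a shift of 0.24 ± 0.38.

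The 10 lists of families by known role each held 0 families past the test for the shift, where 0 of all 67 tested passed, and each is described by its median beside the median of −0.22 over all families. Of the silencing families, miR168 (targets AGO1) had a shift of 0.10 ± 0.40, miR162 (targets DICER-LIKE1) of −0.15 ± 0.39 and miR403 of 0.16 ± 0.27, and the median of 4 with miR838 was −0.02. Of the phosphate families 2 of 4 were tested, with a median of −0.60: miR827, given above, and miR399, which targets the phosphate regulator PHO2, at −0.05 ± 0.47. Of the copper families 2 of 4 were tested, with a median of −0.79: miR408 and miR398, which targets copper/zinc superoxide dismutases. miR398 was lower in both library types (−0.79 ± 0.28 in total RNA and −1.01 ± 0.28 in AGO1, limma adjusted p = 0.0652 and 0.0741), with a shift of −0.22 ± 0.39.
The remaining lists gave medians of 0.24 for sulfate and nitrogen (2 tested), −0.28 for auxin (5 tested) and −0.65 for triggers of phased small RNAs (6 tested). The medians were 0.06 for development (12 tested), −0.54 for defence (8 tested) and −0.15 for secondary metabolism (2 tested). The list named for other ARGONAUTE proteins, miR165, miR166 and miR390 (3 tested), had a median of 0.19. In mock leaves AGO1 minus total was 2.30 for miR165, 2.99 for miR166 and −8.07 for miR390, so only miR390 was lower in AGO1. The lists overlap, and their medians carry no test.

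A family value can mix the strand that AGO1 keeps with the passenger strand, so arms were also fitted apart. Of 89 arms 0 passed (0%; 0 arms also in the fit with a block for replicate number), 13 had an unadjusted p under 0.05 (14.6%), all lower, and the median shift was −0.40. The smallest p belonged to miR398-5p, the passenger strand of a miRNA whose 3p strand is the one bound by AGO1. miR398-5p had 742, 387 and 1746 reads in total mock and 608, 1399 and 2246 reads in total Alternaria. In AGO1 it had 21, 49 and 49 reads in mock and was listed at 0 in all 3 infected libraries, each of which can hold up to 28 unlisted reads. Its AGO1 change was −2.44 ± 0.45 (limma adjusted p = 0.00522), and it was the only 1 of 89 arms past the test for Alternaria minus mock in AGO1 (1.12%). Its fitted shift was −2.58 ± 0.64 (limma adjusted p = 0.0798), and it passed without AGO1 mock replicate 1 (−3.03, adjusted p = 0.0184) and without total mock replicate 3 (−2.64, adjusted p = 0.0256). The miR398-3p arm had a shift of −0.06. The 5p strand made up 18.03, 10.13 and 13.96% of miR398 reads in total mock and 20.77, 22.37 and 41.32% in total Alternaria, without overlap, and at most 0.013% in AGO1 mock.

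Without total mock replicate 3, 6 of 89 arms passed, namely the arms of the 5 families above (miR840 and miR850 by their 5p arms) and miR398-5p. For miR408 the 5p strand made up 75.6, 69.3 and 73.7% of the family's reads in total mock and 82.0, 77.3 and 80.9% in total Alternaria. In AGO1 its share was 5.17 to 9.36% in mock and 5.12 to 8.39% in Alternaria. The treatments did not overlap in total RNA and overlapped in AGO1. The shift was −1.62 ± 0.47 for miR408-5p (limma adjusted p = 0.0877) and −1.03 ± 0.46 for miR408-3p (adjusted p = 0.256).

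The treatments were also apart in total RNA for the passenger strand of miR168. miR168-3p was at 2220, 4807 and 2788 CPM in total mock and at 11474, 4870 and 5480 CPM in total Alternaria, and at 5.29 to 11.8 CPM in all AGO1 libraries. The 5p share of miR168 reads was 97.2, 95.7 and 97.1% in total mock and 91.5, 94.5 and 92.6% in total Alternaria, without overlap, and 99.7 to 99.8% in AGO1 in both treatments. The shift was −1.34 ± 0.55 for miR168-3p (limma adjusted p = 0.256) and 0.05 for miR168-5p.

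At the level of single sequences, 0 of 209 passed the test for the shift (0%), with limma-voom also at 0, and 14 had an unadjusted p under 0.05 (6.7%), 7 in each direction. The sequence fit has its own scaling, so its values are to be read against its own median of −0.04. For the 120 sequences listed in all 12 libraries the median was 0.20. The smallest p belonged to miR396a, which like miR396b targets growth-regulating factor genes. The pair differs by G21T (miR396a first, counted from the 5′ end). miR396a was at 24906, 27273 and 22122 CPM in total mock and at 16202, 19415 and 9520 CPM in total Alternaria. In AGO1 it was at 3824, 3662 and 3207 CPM in mock and at 5837, 4401 and 6789 CPM in Alternaria. With the scaling of the sequence fit the treatments did not overlap in either library type, lower in total RNA and higher in AGO1. This separation of levels was not checked with another scaling. The shift was 1.43 ± 0.36 (limma unadjusted p = 0.00142, adjusted p = 0.297).

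miR396b had a shift of 0.35 ± 0.40 (limma adjusted p = 0.792). The difference between the 2 sequences was not tested, but their ratio within a library is free of scaling. This and the other shares within families were chosen after the values were seen and carry no test. miR396a made up 77.5, 72.1 and 75.2% of the reads of the pair in total mock and 62.5, 71.7 and 58.4% in total Alternaria. In AGO1 it made up 5.48, 6.80 and 10.0% in mock and 9.06, 8.36 and 9.53% in Alternaria. The share was lower in each infected total library than in each mock one, while the AGO1 shares overlapped.

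Among the other sequences with the smallest p for a higher shift were short forms cut back at the 3′ end. The 19-nt miR166 was at 111, 199 and 122 CPM in total mock and at 20.0, 84.7 and 38.7 CPM in total Alternaria, and at 504 to 859 and 444 to 712 CPM in AGO1, with a shift of 1.57 ± 0.62. The 19-nt miR403 had a shift of 1.54 ± 0.64 and the 18-nt miR158 of 2.64 ± 1.10 (limma adjusted p = 0.516 for the first 2 and 0.526 for the last). The 18-nt miR158 was listed at 0 in at least 1 of the 12 libraries, so its value also depends on how zeros are read. The full-length forms had shifts of 0.51 ± 0.41, 0.54 ± 0.27 and 0.28 ± 0.29. Forms under 20 nt made up 6.67, 7.84 and 6.77% of miR158 reads in total mock and 1.12, 5.41 and 2.69% in total Alternaria. In AGO1 they made up 10.6, 14.6 and 11.4% in mock and 7.75, 8.26 and 8.91% in Alternaria, so the share was lower in infected leaves in both library types without overlap. Both overlapping products of the MIR161 precursor also had positive values, 0.64 ± 0.26 and 0.97 ± 0.40.

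On the lower side, the 21-nt miR850 that begins with A had a shift of −3.90 ± 1.36 and the 22-nt form that begins with U one of −0.47 ± 0.44 (limma adjusted p = 0.516 and 0.766). The form beginning with A made up 38.9, 52.2 and 41.2% of miR850 reads in total Alternaria and at most 0.901% in any AGO1 library of the comparison. In total mock it made up 29.7% in replicate 3 and was listed at 0 in replicates 1 and 2, where the family had only 49 and 45 reads, so its change in total RNA was limited by depth. The 3p sequence of miR398a was listed at 6.64, 7.56 and 7.27 CPM in AGO1 mock and at 1.98, 0 and 0 CPM in AGO1 Alternaria. It was at 27.1 to 46.0 CPM in total RNA. It fell in AGO1 (−2.50 ± 0.56, limma adjusted p = 0.0287) and had a shift of −2.24 ± 0.80 (limma adjusted p = 0.516). Since a listed 0 can stand for up to 28 reads, the sizes of this fall and shift depend on how zeros are read. The 19-nt miR163 was listed at 0 in all total mock libraries, so its fitted shift of −1.99 depends on how zeros are read and became 1.37 with zeros at 28 reads.

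**Figure D4:**
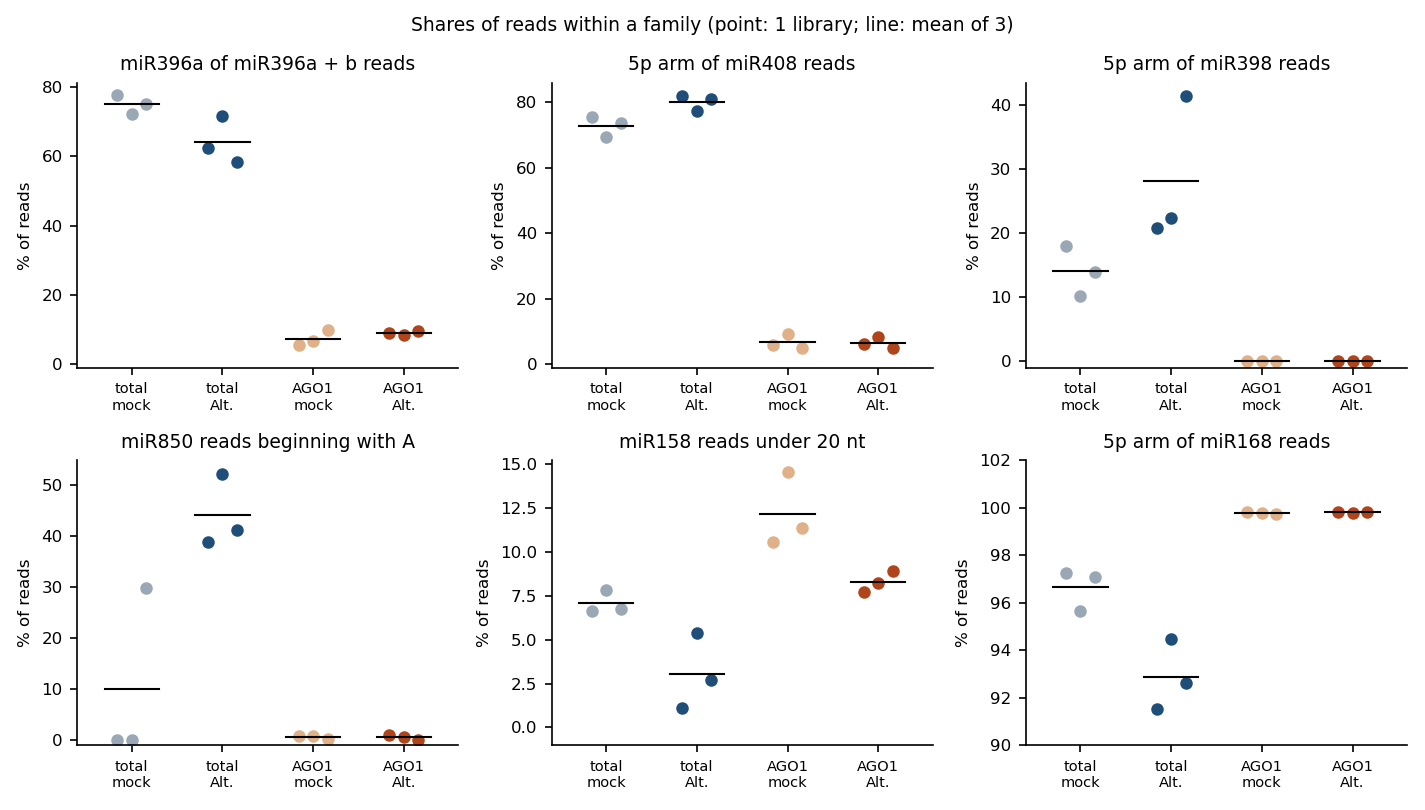
Percentage of a family's reads (y axis) in each of the 12 libraries for 6 shares, each point a library and each line the mean of 3; the axis of the miR168 panel starts at 90%. The 6 were picked from 11 shares for treatments that lie apart in total RNA; over all 11 this held for 8, and for 3 in AGO1, and the 5p shares of miR169 and miR840 and the short forms of miR403 overlapped in total RNA. In the panels shown, the 5p strands of miR408 and miR398, miR396a and the miR850 form beginning with A are minor in AGO1 in both treatments.

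Properties of the sequences were compared by library. Reads beginning with U, the base AGO1 prefers, made up 78.8 ± 2.4% (SD, n = 3) in total mock, 82.6 ± 2.6% in total Alternaria and 99.8% in AGO1 in both treatments. Forms under 20 nt made up 1.13 ± 0.12% and 0.61 ± 0.29% in total RNA and 2.26 ± 0.72% and 1.64 ± 0.13% in AGO1. None of 6 such shares had a shift that passed: the exact permutation test over 400 arrangements gave two-sided p-values of 0.265 to 0.74, each adjusted to 0.74. By 5′ base, the median shift was −0.44 for 13 sequences beginning with A, −0.09 for 25 with C, 0.24 for 13 with G and −0.03 for 158 with U. By length, it was 0.21 for 12 sequences of 18 nt, 0.24 for 23 of 19 nt, −0.04 for 103 of 21 nt and −0.24 for 17 of 22 nt.

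The authors' deposited tables of AGO1 against total RNA, made from the same libraries with another scaling, give log2 values in each treatment. In the authors' deposited table miR850 is at 5.73 in mock and 4.03 in Alternaria, and miR408 at −1.24 and −2.72. In the authors' deposited table miR840 is at 0.94 and −0.98, miR827 at −0.42 and −1.68, and miR163 at −1.38 and −2.66. In the authors' deposited table miR169 is at −3.06 and −2.39. No test of the difference between treatments is part of those tables.

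With untreated leaves in place of mock-treated ones, 7 of 67 families passed the test for the shift (10.4%), 2 higher and 5 lower. This comparison uses the same infected libraries, so it is not independent of the one above, and these families are given at the end with their untreated levels.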

How the data were processed

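Libraries were made from total and AGO1-bound small RNA of Col-0 rosette leaves. Reads per mature sequence were deposited by the authors, who matched them to plant miRBase sequences with miRProf at 0 mismatches, per the file headers, and trimmed reads with cutadapt on build TAIR10, per the submitters' processing notes. The deposited table holds whole read numbers of 2 runs per library, which were summed, mixed with lines that carry names only. The deposited comparison tables hold log2 ratios, adjusted p-values and group means (a normalised signal), which the authors made with DESeq (1.2), per the submitters' processing notes.

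Members had reads in both library types. Tested were members with at least 1.44 CPM (10 reads at the median depth) in at least 3 of 12 libraries and 15 reads in all, which left 67 families, 209 of 212 sequences and 89 arms. Since the table mixes names and numbers, a log-scale test was used: limma 3.58.1 in R 4.3.3 (trend, robust) on log2(CPM + 1) scaled by TMM factors, one fit of 12 libraries with 4 group means, Benjamini-Hochberg adjustment over all features tested and a threshold of 0.05. The script was tested on simulated data. Labels give replicate numbers only; same-numbered AGO1 mock and AGO1 Alternaria libraries had correlations of deviations of 0.31 to 0.53, and differently numbered ones −0.34 to −0.06, so a block for library type and number was fitted too. Library-wide shares were compared by an exact permutation test, two-sided. Depth per library was 1166166 to 19784394 miRNA reads, and counting limits follow from the listing minimum of 15 reads per run. Arms are not named in the table: they were taken from the RefSeq annotation or from the position in the precursor, which agreed in 424 of 424 annotated matches.

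The families named were the 8 with the smallest p each way, the 5 most abundant of each library type, those past the threshold in a single comparison and the phosphate, copper and silencing lists; for sequences, the 6 with the smallest p each way and the most read of each named family. Others that are named were chosen after their values were seen. The members and the lists were chosen with earlier results of these data known. Alternatives were other scalings, filters, pseudocounts, readings of listed zeros, runs, weights, replicate blocks and each library left out in turn; those for single changes with TMM within library types or limma-voom, the block for library type and number, and all those against untreated leaves, were added after the data were seen.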

Additional observations from a re-analysis of the deposited data

Results flagged for a closer look

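With untreated leaves as the control, 7 of 67 families had a limma adjusted p under 0.05 for the AGO1 shift with Alternaria, and the difference between AGO1 and total RNA in the effect of infection is what flagged them. The infected libraries are those of the mock comparison, and the total untreated libraries held 753927 to 1825076 miRNA reads.

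Higher shifts were measured for miR169 and miR6478. miR169 was at 1060, 633 and 1150 CPM in total untreated, scaled over 18 libraries, and at 23.1 to 26.9 CPM in AGO1 untreated, and its shift was 2.16 ± 0.49 (limma adjusted p = 0.0125). This value sets 3p reads in total RNA, where the 5p share was 0 to 8.56%, against 5p reads in AGO1, where it was 100%. For miR169-5p alone the shift against untreated was −1.36 ± 1.41 (limma adjusted p = 0.614), and against mock it was −2.20. miR6478 was at 1523, 2836 and 4138 CPM in total untreated and at 19.6 to 21.1 CPM in AGO1 untreated, and its shift was 2.64 ± 0.64 (adjusted p = 0.0128 with limma). Both passed with each of the 12 libraries left out in turn, but with limma-voom miR6478 did not (adjusted p = 0.0656, against 0.0184 for miR169).

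Lower shifts were measured for 5 families. miR408 was at 1821, 2439 and 1574 CPM in total untreated and at 1044, 499 and 433 CPM in AGO1 untreated, with a shift of −1.70 ± 0.47 (limma adjusted p = 0.0192), and it passed in 10 of 12 fits that left out a library, with a highest limma adjusted p of 0.0879. miR840 was at 46.8, 41.7 and 0 CPM in total untreated and at 53.0 to 87.1 CPM in AGO1 untreated, with a shift of −4.14 ± 1.28 (limma adjusted p = 0.0350), and it passed in 5 of those 12 fits.
miR400, miR838 and miR5651 were listed at 0 in all 3 total untreated libraries. Their fitted shifts of −4.73, −4.12 and −3.33 (limma adjusted p = 0.0192, 0.0192 and 0.0270) became −0.30, 0.31 and 1.10 when zeros were set to 28 reads, with adjusted p-values of 0.831, 0.835 and 0.406. The values of miR408 and miR840 under that setting were −1.70 and −2.52.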

How the results depend on the processing

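The count of families with a higher shift stayed at 0 in every setting run. The count of lower ones ranged from 0 to 5 with 1 library left out (5 without total mock replicate 3) and was 1 with run 2 alone; the counts ranged from 0 to 1 for sequences and from 0 to 6 for arms. Same-numbered total and AGO1 libraries had correlations of deviations from −0.32 to −0.06, and total mock and Alternaria ones from −0.18 to 0.37, so the numbers pair neither. With a replicate block by number, or by treatment and number, 0 families and 0 sequences passed the shift test; with the block by library type and number 2 families, both lower, 0 sequences and 0 arms did. For Alternaria minus mock in total RNA, higher calls were 6 with the block by number, which added miR391 (limma adjusted p = 0.0464, against 0.0652), 9 with the block by library type and number, 8 with library totals, 3 with TMM within library types, 3 with limma-voom and 3 to 7 with 1 library left out, and lower calls 1, 6, 2, 1, 1 and 0 to 4. In AGO1, both kinds of call were 0 with the block by number; higher calls were 2 with the block by library type and number, 1 with library totals, 2 with TMM within types, 2 with limma-voom and 0 to 1 with 1 library left out, and lower calls 3, 1, 0, 2 and 0 to 1. AGO1 minus total gave 12 higher calls in mock leaves and 9 in infected leaves with library totals, 11 and 9 with TMM within types, and 38 lower calls in mock leaves with the latter. Against untreated leaves, limma-voom called 1 family higher, miR169, zeros at 28 reads left 2 lower, and lower calls ranged from 0 (without AGO1 Alternaria replicate 3) to 8 (without total untreated replicate 1); 2 remained without total Alternaria replicate 3, AGO1 Alternaria replicate 2, and AGO1 untreated replicates 1 or 2.

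Some values turned direction. With zeros at 28 reads miR5651 became 0.48, miR8183 0.092 and the 19-nt miR163 1.37 (0.26 with a pseudocount of 10 CPM). The 21-nt miR161 became −0.076 with genome-matched totals. With 1 library left out the share shifts ranged from −0.012 to 0.046 for 21 nt, −0.43 to 0.11 for 22 nt, −0.018 to 0.25 for 5p arms and −0.62 to 0.032 for miRNA reads. The cause of these changes was not tested, except that the reading of listed zeros sets the first 3 by construction. A value listed at 0 can stand for up to 4.95 to 18.4 scaled CPM in the total libraries of the mock comparison, 2.10 to 3.75 scaled CPM in the AGO1 ones and, before scaling, 37.1 CPM in total untreated replicate 2.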
